A study of Mus musculus with 15 samples.

Results

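The mitochondrial ribosomal protein genes are the nuclear genes named Mrpl or Mrps with a number, for proteins of the large and the small subunit of the mitochondrial ribosome. They were chosen by symbol and level: 83 of 55571 gene rows matched the name, 5 were pseudogene rows and left out, and of the other 78 the 73 with a mean of at least 1 CPM over the 15 libraries are the members. CPM is a count per 1e+06 counts of its library. The members were chosen on unscaled CPM. The CPM values below use library sizes scaled by TMM, a trimmed mean of the ratios between libraries. Of the members, 47 are named for the large subunit and 26 for the small subunit, and all 73 were among the 14571 genes tested.

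RNA sequencing was done on E0771, a mouse mammary carcinoma cell line, expressing Malt1 or carrying the vector, in 5 groups of 3 libraries. MALT1 is a scaffold and protease that works with BCL10 upstream of NF-kB. The groups were Malt1_WT (wild-type Malt1), Malt1_PD (a mutant that the labels call PD without spelling it out), Malt1_V87R and Malt1_L88D (substitutions at neighbouring residues) and Vector (the control without a Malt1 construct). The Malt1_PD columns carry the name of a cysteine substitution, and were read as that group since every other construct had columns under its own name. All groups were the same cell line, grown without T cells. Whether replicates came from separate cultures, and whether cells were pooled or clonal, is not in the labels, so p-values measure only the spread between these libraries.

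Mitochondrial ribosomes translate the few mRNAs that mitochondrial DNA encodes, all of them for subunits of the respiratory chain and the ATP synthase. Their RNA comes from mitochondrial DNA, but their proteins are made in the cytosol from nuclear genes, imported, and assembled in the organelle. Some of the proteins have relatives in the bacterial ribosome and others are found in mitochondria only.

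The promoters of 4 members are shown because these genes are among the largest falls and rises of Malt1_WT against Vector described below, and because their windows hold different motifs. Each line gives the 250 bases before the RefSeq start in GRCm38.p6, read 5′ to 3′ on the strand of the gene. In Mrpl18, Mrpl51 and Mrpl39 these bases lie within the gene as the GENCODE M21 annotation places it, downstream of its GENCODE start. In Mrpl30 they end just before the GENCODE start. Mrpl18 (chr17:12916092-12916341, minus strand) and Mrpl51 (chr6:125191950-125192199, plus strand) fell, and the capitals mark CCGGAAG, the core bound by ETS factors such as GABP, which regulates many mitochondrial genes. Mrpl39 (chr16:84735245-84735494, minus strand) and Mrpl30 (chr1:37890227-37890476, plus strand) rose, and the capitals mark the motif of the factor NRF1 (the letters GCGCA, any base and GCGC in 1 run), read on the opposite strand in Mrpl30.
Mrpl18: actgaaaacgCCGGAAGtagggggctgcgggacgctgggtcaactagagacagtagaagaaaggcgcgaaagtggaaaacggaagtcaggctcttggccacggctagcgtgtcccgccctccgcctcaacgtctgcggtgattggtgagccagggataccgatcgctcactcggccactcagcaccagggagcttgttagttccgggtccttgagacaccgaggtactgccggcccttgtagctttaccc
Mrpl51: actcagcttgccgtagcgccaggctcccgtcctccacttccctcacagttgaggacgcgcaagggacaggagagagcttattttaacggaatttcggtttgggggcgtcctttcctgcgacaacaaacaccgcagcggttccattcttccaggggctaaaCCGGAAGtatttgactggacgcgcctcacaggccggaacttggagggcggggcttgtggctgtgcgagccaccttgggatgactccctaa
Mrpl39: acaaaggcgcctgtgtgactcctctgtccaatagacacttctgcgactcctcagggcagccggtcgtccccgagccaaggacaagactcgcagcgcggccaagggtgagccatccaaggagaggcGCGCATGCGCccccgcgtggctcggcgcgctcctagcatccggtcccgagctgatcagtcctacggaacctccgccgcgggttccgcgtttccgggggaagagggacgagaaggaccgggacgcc
Mrpl30: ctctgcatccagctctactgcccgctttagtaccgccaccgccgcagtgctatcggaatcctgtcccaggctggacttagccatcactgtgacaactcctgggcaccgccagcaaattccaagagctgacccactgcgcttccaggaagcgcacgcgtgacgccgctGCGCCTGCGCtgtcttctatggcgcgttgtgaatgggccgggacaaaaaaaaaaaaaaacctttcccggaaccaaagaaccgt

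The RefSeq table held a window for 64 of the 73 members, from 250 bases before to 50 after the start, and each motif was searched on both strands. The ETS core CCGGAAG was in 23 of them (35.9%), against 18.6% of the windows of 10076 tested genes and 9.12% of all 27025 windows. The NRF1 motif was in 12 (18.8%), against 10.2% of tested genes and 4.78% of all windows. The YY1 motif AANATGGCG was in 11 (17.2%), against 5.37% and 2.51%.

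Other motifs were no more frequent in members than in tested genes by count: the E-box CACGTG was in 5 member windows (7.81%, against 1012 of 10076 tested genes), the GC box GGGCGG in 33 (51.6%, against 62.7%) and the NF-kB consensus in 2 (3.12%, against 4.93%). The GC box can overlap other matches. Member windows had a median GC content of 58.0%, against 60.3% in tested genes. Both motifs shown above were found in members of either direction. Neither was in the window of Mrps6, the largest fall described below. Of the 45 members with a window that fell in Malt1_WT, 16 held the ETS core and 8 the NRF1 motif. Of the 4 that rose 1 and 3 did, and of the 15 not called 6 and 1. With 4 rises, whether a motif goes with a direction cannot be told. A match describes letters in the window and is not a binding site.

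Library totals ran from 15471746 to 21458457 counts, and the 73 members took 0.253% to 0.328% of them. Malt1 averaged 202 ± 7.96 CPM in Malt1_WT, 250 ± 8.87 in Malt1_PD, 279 ± 1.35 in Malt1_V87R, 251 ± 6.74 in Malt1_L88D and 28.1 ± 1.92 in Vector (SD, n = 3 each). The gene count cannot tell the construct from the endogenous gene. The 8 epithelial markers summed to 93.5 to 101 CPM in Malt1_WT, 119 to 124 in Malt1_PD, 95.8 to 101 in Malt1_V87R, 102 to 105 in Malt1_L88D and 117 to 134 in Vector. Only Krt8 and Epcam were tested, and both fell in Malt1_WT, Malt1_V87R and Malt1_L88D and Epcam alone in Malt1_PD, while Cdh1 and Krt18 were under 1 CPM in every group mean and Ovol2 was at 0. The 6 mesenchymal markers summed to 2810 to 2909 CPM in Malt1_WT, 3280 to 3494 in Malt1_PD, 4368 to 4475 in Malt1_V87R, 4384 to 4403 in Malt1_L88D and 4452 to 4722 in Vector, mostly Vim. Of the 5 tested, 4 fell and 1 rose in Malt1_WT and in Malt1_PD, 2 fell in Malt1_L88D and 0 were called in Malt1_V87R. The 8 T and NK cell markers summed to at most 1.07 CPM in any library, and none was tested. The 8 macrophage markers summed to 30.6 to 31.6 CPM in Malt1_WT, 23.3 to 26.5 in Malt1_PD, 13.0 to 13.8 in Malt1_V87R, 16.1 to 21.9 in Malt1_L88D and 13.4 to 15.2 in Vector. Of the 5 that were tested 3 rose in Malt1_WT, 5 rose in Malt1_PD, 3 in Malt1_L88D and 0 in Malt1_V87R. Most of the sum was Cd68, and Ptprc, C1qa and Itgam stayed under 1 CPM. The 4 fibroblast markers summed to 175 to 182 CPM in Malt1_WT, 181 to 193 in Malt1_PD, 129 to 138 in Malt1_V87R, 133 to 143 in Malt1_L88D and 137 to 156 in Vector, mostly Pdgfra. Of the 3 tested, Pdgfra and Dcn rose and Col1a2, under 1 CPM, fell in Malt1_WT, Pdgfra rose in Malt1_PD and 0 were called in the others. The 4 endothelial markers summed to 13 to 15 CPM in Malt1_WT, 14.6 to 15.5 in Malt1_PD, 10.5 to 10.9 in Malt1_V87R, 10.6 to 12.1 in Malt1_L88D and 11.6 to 12.5 in Vector, and of 2 tested 1 rose in Malt1_WT and 1 in Malt1_PD. The part of these genes in the results was not tested. In bulk RNA, fewer cells of a type and less RNA per cell cannot be told apart.

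Per kilobase of exon, the members were expressed at moderate and unequal levels in Vector cells. Their median was 15.4 CPM per kb, against 4.76 over the 14531 tested genes with an annotated length, 42.4 for nuclear genes of oxidative phosphorylation, and 356 and 403 for the large and small subunit of the cytosolic ribosome. Large-subunit members had a median of 17.9 CPM per kb and small-subunit members one of 14. The highest were Mrps21, at 50.1 ± 2.16 CPM per kb (SD, n = 3), Mrpl18 at 47.2 ± 2.23 and Mrpl2 at 46.3 ± 2.51, all relatives of bacterial ribosomal proteins. The lowest were Mrpl15, at 1.02 ± 0.0766, Mrps9 at 2.75 ± 0.108 and Mrpl23 at 4.31 ± 0.0644. Exon lengths are the union over all GENCODE M21 transcripts of a gene, which lowers the value of genes with long, little-used transcripts.

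The 5 candidates under 1 CPM were Mrpl44, Mrps23 and Mrps10, listed at 0 counts in all 15 libraries, Mrps14 with 2 counts in all and Mrpl53 with 1. They encode core parts of the ribosome, and how the counting treated their reads was not tested. In Mrpl53, 88% of exon bases are overlapped by another annotated gene.

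Malt1_WT against Vector shows cells with the wild-type construct. Most mitochondrial ribosomal protein genes were lower in Malt1_WT. With an adjusted p under 0.05 (edgeR's quasi-likelihood test, Benjamini-Hochberg over all genes tested), 51 of 73 fell (69.9%) and 4 rose (5.48%), where 27.7% of all genes fell and 27.2% rose. The median log2 fold change of the members was −0.23, against −0.01 over all tested genes, and 66 of 73 were below 0. Without overlap between the libraries of the groups, 49 fell and 3 rose, where 26.5% and 25.9% of all genes did.

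The largest fall was that of Mrps6, a small-subunit protein with a bacterial relative (GRCm38 chromosome 16, 92058270 to 92112227, plus strand). It had 19.0, 19.6 and 19.4 CPM in Malt1_WT, 31.7, 26.3 and 26.4 in Malt1_PD, 34.2, 34.3 and 33.0 in Malt1_V87R, 30.7, 29.4 and 33.0 in Malt1_L88D, and 45.4, 39.8 and 45.9 in Vector. Malt1_WT was the lowest group and Vector the highest, and the libraries of neither overlapped those of any other group. The difference between Malt1_WT and Vector was −1.18 ± 0.08 on the log2 scale (SE, adjusted p = 1e-13). Of the exon bases of Mrps6, 19.9% overlap a predicted gene on the same strand.

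Large-subunit genes made up the other falls of the first rank. Mrpl18 (chromosome 17, 12911349 to 12916345, minus strand), for a relative of bacterial L18, which binds ribosomal RNA, had 40.2, 39.2 and 39.5 CPM in Malt1_WT, 50.4, 43.2 and 46.5 in Malt1_PD, 63.4, 61.7 and 62.5 in Malt1_V87R, 59.3, 58.1 and 61.1 in Malt1_L88D, and 66.6, 62.6 and 68.7 in Vector. Malt1_WT and Malt1_PD lay apart from the other 3 groups, and Malt1_V87R overlapped Vector. The fall in Malt1_WT was −0.74 ± 0.06 (adjusted p = 4.6e-12), and 10.1% of the exon bases of Mrpl18 overlap another gene, Tcp1. Mrpl51 (chromosome 6, 125191801 to 125196269, plus strand), for a protein found in mitochondria only, averaged 43.9 ± 0.930 CPM in Malt1_WT and 72.5 ± 5.61 in Vector (−0.73 ± 0.07 log2, adjusted p = 1.6e-10).

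Mrpl34, Mrpl15 and Mrpl4, all for relatives of bacterial large-subunit proteins, completed the 6 largest falls. Mrpl34 averaged 13.4 ± 1.81 CPM in Malt1_WT and 21.7 ± 0.188 in Vector (−0.70 ± 0.10, adjusted p = 4.1e-07). Mrpl15, the lowest member, averaged 5.45 ± 0.527 CPM in Malt1_WT and 8.62 ± 0.650 in Vector (−0.67 ± 0.15, adjusted p = 0.00034). Mrpl4, whose bacterial relative lines the exit tunnel of the ribosome, averaged 24.2 ± 1.44 CPM in Malt1_WT and 37.6 ± 1.57 in Vector (−0.64 ± 0.08, adjusted p = 5.8e-08). Mrpl12, which in human cells also binds the mitochondrial RNA polymerase, averaged 53.2 ± 1.2 CPM in Malt1_WT and 68.8 ± 1.97 in Vector (−0.37 ± 0.05, adjusted p = 4.9e-07).

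The 4 members that rose in Malt1_WT were Mrpl30, Mrpl39, Mrps18a and Mrpl32. Mrpl39 (chromosome 16, 84717576 to 84735742, minus strand), for a mitochondria-specific protein related to threonyl-tRNA synthetase, had 62.3, 67.8 and 64.0 CPM in Malt1_WT, 72.6, 71.1 and 71.2 in Malt1_PD, 54.3, 55.2 and 54.4 in Malt1_V87R, 49.3, 52.4 and 51.2 in Malt1_L88D, and 53.7, 48.3 and 49.9 in Vector. Malt1_PD was the highest group and Malt1_WT the next, with no overlap between them or with the other groups. The rise in Malt1_WT was 0.35 ± 0.05 (adjusted p = 1.3e-06).

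Mrpl30 (chromosome 1, 37890477 to 37898535, plus strand), for the relative of bacterial L30, had 19.9, 19.3 and 21.3 CPM in Malt1_WT, 22.2, 21.7 and 21.7 in Malt1_PD, 22.3, 21.9 and 20.9 in Malt1_V87R, 20.6, 21.7 and 23 in Malt1_L88D, and 16.3, 14.6 and 16 in Vector. Every construct library was above every Vector library. The log2 fold changes against Vector were 0.37 ± 0.08 in Malt1_WT (adjusted p = 0.00017), 0.48 ± 0.07 in Malt1_PD (adjusted p = 3.7e-06), 0.47 ± 0.07 in Malt1_V87R (adjusted p = 2.9e-05) and 0.48 ± 0.07 in Malt1_L88D (adjusted p = 2.7e-05). Mrpl32, whose protein is matured by the m-AAA protease in mouse and yeast, rose by 0.19 ± 0.07 in Malt1_WT (adjusted p = 0.033), with libraries that overlapped those of Vector. Leaving out Malt1_WT replicate 1 or 2 or Vector replicate 1 or 2 ended that call (adjusted p from 0.0617 to 0.121).

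**Figure D1:**
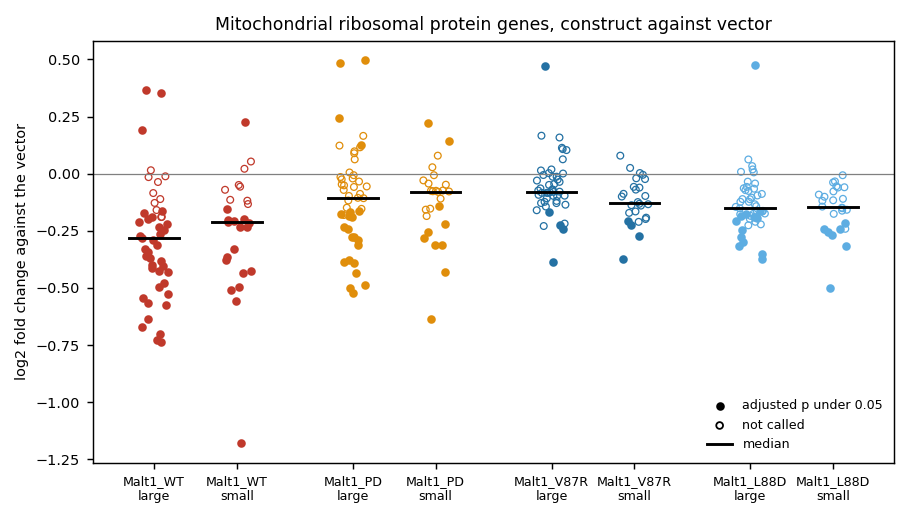
Log2 fold change against Vector (vertical axis) of the 47 large-subunit and 26 small-subunit members by name, for each construct. Filled points passed an adjusted p of 0.05, open points did not, and the bars are medians; in Malt1_WT the medians are −0.28 for the large and −0.21 for the small subunit.

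In Malt1_PD against Vector fewer members moved. Of the members, 26 fell (35.6%) and 6 rose (8.22%), where 22.0% of all genes fell and 22.8% rose. The median log2 fold change was −0.10, and 58 members were below 0. Without overlap of libraries 23 fell and 5 rose, where 20.0% and 21.3% of all genes did. The falls were led by Mrps6, at 28.1 ± 3.06 CPM in Malt1_PD and 43.7 ± 3.41 in Vector (−0.64 ± 0.07, adjusted p = 1.4e-08), and Mrpl33, for the relative of bacterial L33, at 43.0 ± 2.81 CPM in Malt1_PD and 61.7 ± 2.75 in Vector (−0.52 ± 0.06, adjusted p = 5.4e-09). Mrpl18 followed at −0.50 ± 0.05, then Mrpl49, for a mitochondria-specific protein, at −0.49 ± 0.06, Mrpl4 at −0.43 ± 0.08 and Mrps26 at −0.43 ± 0.07 (adjusted p from 2.3e-05 to 1e-08).

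Among the rises in Malt1_PD, Mrpl39 stood at 71.6 ± 0.803 CPM, against 50.7 ± 2.77 in Vector (0.50 ± 0.05, adjusted p = 2.6e-09). Mrpl32 averaged 32.3 ± 1.23 CPM in Malt1_PD and 27.3 ± 2.55 in Vector (0.24 ± 0.07, adjusted p = 0.0073). Mrps18b and Mrpl38 rose by 0.14 ± 0.06 and 0.13 ± 0.05 (adjusted p = 0.043 and 0.04). The call of Mrps18b was lost without Malt1_PD replicate 2 or 3 or Vector replicate 2 or 3 (adjusted p from 0.0716 to 0.115), and that of Mrpl38 without Malt1_PD replicate 1 or Vector replicate 1 or 2 (adjusted p from 0.0513 to 0.14). Malt1_PD replicate 2 had the lowest summed level of the members in its group, 2697 CPM, against 3034 and 2905 in the others. It was also the lowest of that group for the large cytosolic ribosomal proteins, at 28620 CPM against 33210 and 31810. Without that library 17 members fell.

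In Malt1_V87R against Vector, 8 members fell (11%) and 1 rose (1.37%), where 4.70% of all genes fell and 7.01% rose, and the median was −0.08. Without overlap of libraries 7 fell and 1 rose, where 4.60% and 6.85% of all genes did. Mrpl4 averaged 28.8 ± 0.756 CPM in Malt1_V87R and 37.6 ± 1.57 in Vector (−0.39 ± 0.07, adjusted p = 0.00047), and Mrps6 averaged 33.8 ± 0.689 in Malt1_V87R (−0.37 ± 0.07, adjusted p = 0.00029). Mrps12, for the relative of bacterial S12 at the decoding site, fell by 0.27 ± 0.08 on the log2 scale (adjusted p = 0.03), Mrpl52 by 0.23 ± 0.07 (adjusted p = 0.044) and Mrps31 by 0.22 ± 0.07 (adjusted p = 0.026). Only the calls of Mrpl30, Mrpl4 and Mrps6 held whichever of the 6 libraries was left out. Those of Mrps12 and Mrps31 were lost without any 1 of the Malt1_V87R libraries or without Vector replicate 1 or 2, and that of Mrpl52 without Malt1_V87R replicate 2 or Vector replicate 1 or 3 (adjusted p from 0.0572 to 0.329). The falls numbered 2 without Malt1_V87R replicate 2 or without Vector replicate 1, 3 without Malt1_V87R replicate 1, and 4 without Vector replicate 3.

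In Malt1_L88D against Vector, 19 members fell (26%) and 1 rose (1.37%), where 8.43% of all genes fell and 8.96% rose, and the median was −0.15. Without overlap of libraries 18 fell and 1 rose, where 8.27% and 8.67% of all genes did. Mrps6 averaged 31.0 ± 1.83 CPM in Malt1_L88D and 43.7 ± 3.41 in Vector (−0.50 ± 0.07, adjusted p = 5.5e-06). Mrpl54, for a mitochondria-specific protein, averaged 20.5 ± 0.976 CPM in Malt1_L88D and 26.4 ± 2.25 in Vector (−0.37 ± 0.09, adjusted p = 0.0052). Mrpl34 fell by 0.35 ± 0.09 on the log2 scale, Mrps12 by 0.32 ± 0.09, Mrpl4 by 0.32 ± 0.07 and Mrpl11, for the relative of bacterial L11 near the GTPase centre, by 0.30 ± 0.08 (adjusted p from 0.0033 to 0.0094). The falls numbered 5 without Vector replicate 1 and 7 without Malt1_L88D replicate 3, and 3 of the 20 calls held in all 6 such fits. The calls of Mrpl34 and Mrpl4 were lost without Malt1_L88D replicate 3 (adjusted p = 0.0517 and 0.0503), that of Mrpl11 without Vector replicate 1 (adjusted p = 0.103), and that of Mrps12 without Malt1_L88D replicate 1 or Vector replicate 1 (adjusted p = 0.0613 and 0.0778).

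The 4 comparisons with Vector share its libraries, so their values are given side by side and not as independent counts. Mrps6, Mrpl4, Mrpl51 and Mrpl42 fell in all 4, and Mrpl30 rose in all 4. Mrpl42, for a mitochondria-specific protein, had 72.9, 64.8 and 68.0 CPM in Malt1_WT, 81.7, 71.0 and 79.0 in Malt1_PD, 88.1, 90.8 and 92.0 in Malt1_V87R, 82.5, 80.9 and 87.5 in Malt1_L88D, and 108.8, 95.8 and 99.0 in Vector. Every Vector library was above every construct library. In Malt1_V87R the calls of Mrpl42 and Mrpl51 were lost without Malt1_V87R replicate 1 or 2, or without Vector replicate 1 or 3 (adjusted p from 0.0595 to 0.329), and that of Mrpl42 also without Malt1_V87R replicate 3. In Malt1_L88D the call of Mrpl51 was lost without Vector replicate 1 (adjusted p = 0.0699) and that of Mrpl4 without Malt1_L88D replicate 3 (adjusted p = 0.0503).

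Most other members were called in fewer comparisons. In either direction 55 of the 73 members were called for Malt1_WT, 32 for Malt1_PD, 9 for Malt1_V87R and 20 for Malt1_L88D. Of all genes 54.9%, 44.8%, 11.7% and 17.4% were. The share of members was close to that of all genes in Malt1_PD and Malt1_V87R, and above it in Malt1_WT and Malt1_L88D. Falls in Malt1_WT alone were called for 20 members (27.4%), where 7.15% of all tested genes had that pattern. Falls in Malt1_WT and Malt1_PD only were called for 12 (16.4%, against 12.5% of all genes), and falls in those and Malt1_L88D for 10 (13.7%, against 2.52%), while 16 were called in none (21.9%, against 36.4%). The 4 that fell in all are 5.48% of members, against 2.63% of all genes, and the 1 that rose in all is 1.37%, against 3.99%. By group means, Vector was the highest of the 5 groups for 52 members (71.2%, against 27% of all genes) and Malt1_WT the lowest for 54 (74%, against 31.8%). Mrpl33 was 1 of the 12 that fell in Malt1_WT and Malt1_PD only. Mrps18a alone rose in Malt1_WT and Malt1_PD and fell in Malt1_V87R and Malt1_L88D (1.37%, against 0.178% of all genes).

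Mrpl33 had 43.4, 42.2 and 41.7 CPM in Malt1_WT, 44.6, 39.8 and 44.7 in Malt1_PD, 60.5, 61.5 and 63.5 in Malt1_V87R, 56.3, 61.0 and 58.4 in Malt1_L88D, and 64.8, 59.5 and 61.0 in Vector. Malt1_WT and Malt1_PD overlapped each other and lay below the other 3 groups, which overlapped. The difference of Malt1_PD from Malt1_WT was 0.02 ± 0.06 on the log2 scale (adjusted p = 0.84).

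The Mrps18 genes are 3 mammalian relatives of bacterial S18, of which Mrps18a encodes a protein placed in the large subunit and Mrps18b and Mrps18c proteins of the small one. Mrps18a (chromosome 17, 46110986 to 46128910, plus strand) had 50.5, 48.9 and 53.5 CPM in Malt1_WT, 53.2, 47 and 51.9 in Malt1_PD, 37.1, 37.6 and 38.4 in Malt1_V87R, 37.7, 37.7 and 35.0 in Malt1_L88D, and 47.4, 39.5 and 43.3 in Vector. Malt1_WT lay above Vector, Malt1_V87R and Malt1_L88D lay below it, and Malt1_PD overlapped it. Against Vector the log2 fold changes were 0.23 ± 0.06 in Malt1_WT (adjusted p = 0.0035), 0.22 ± 0.06 in Malt1_PD (adjusted p = 0.0051), −0.21 ± 0.06 in Malt1_V87R (adjusted p = 0.033) and −0.24 ± 0.07 in Malt1_L88D (adjusted p = 0.01).

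The falls of Mrps18a did not hold in every fit that left out 1 library. In Malt1_V87R the call was lost without any 1 of its libraries or without Vector replicate 1 or 3 (adjusted p from 0.0543 to 0.286), and in Malt1_L88D without Malt1_L88D replicate 3 or Vector replicate 1 (adjusted p = 0.0808 and 0.146). Its difference between the substitutions and Malt1_WT was larger, as given below. Mrps18b averaged 36.4 ± 2.05 CPM in Malt1_WT, 38.8 ± 1.55 in Malt1_PD, 31.9 ± 0.215 in Malt1_V87R, 32.5 ± 0.656 in Malt1_L88D and 35.1 ± 0.566 in Vector, and 30.5% of its exon bases overlap another gene. Mrps18c averaged 16.4 ± 2.32 CPM in Malt1_WT and 17.8 ± 3.96 in Vector, and passed the test in no comparison.

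**Figure D2:**
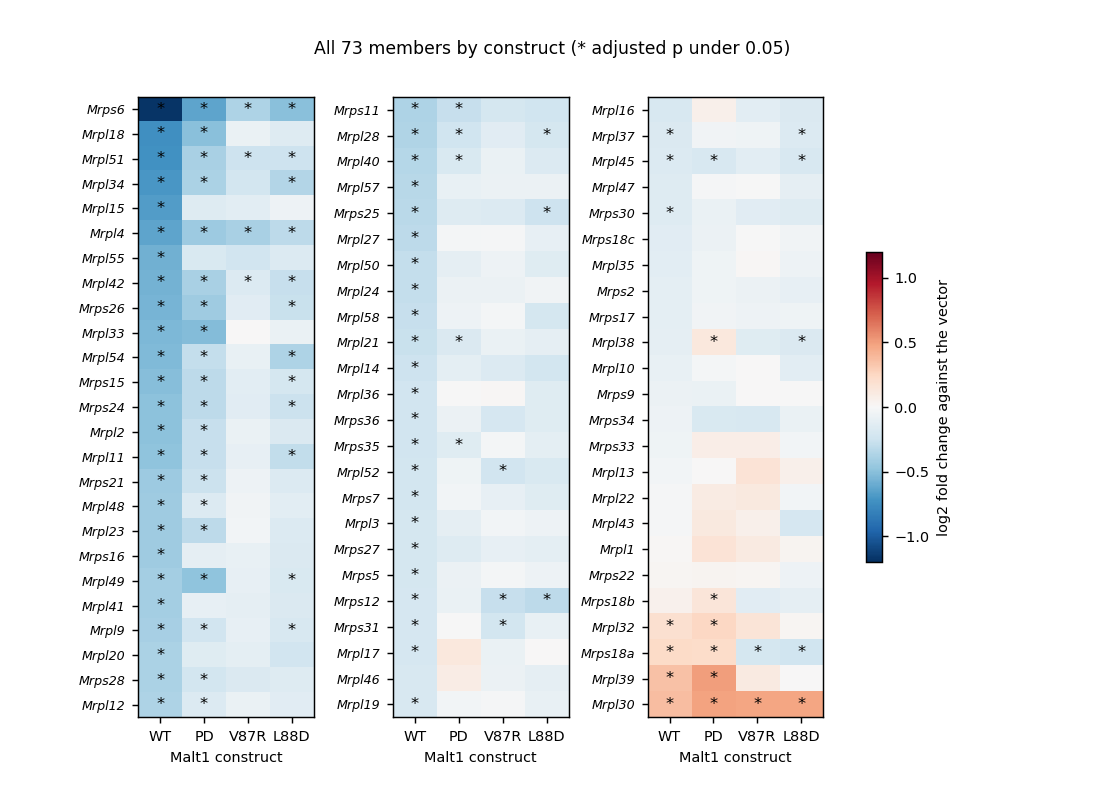
Log2 fold change against Vector of all 73 members (rows, sorted by Malt1_WT from the lowest, top left, to the highest, bottom right) in the 4 constructs (columns), with stars at an adjusted p under 0.05. Stars mark 55 members for Malt1_WT, 32 for Malt1_PD, 9 for Malt1_V87R and 20 for Malt1_L88D.

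**Figure D3:**
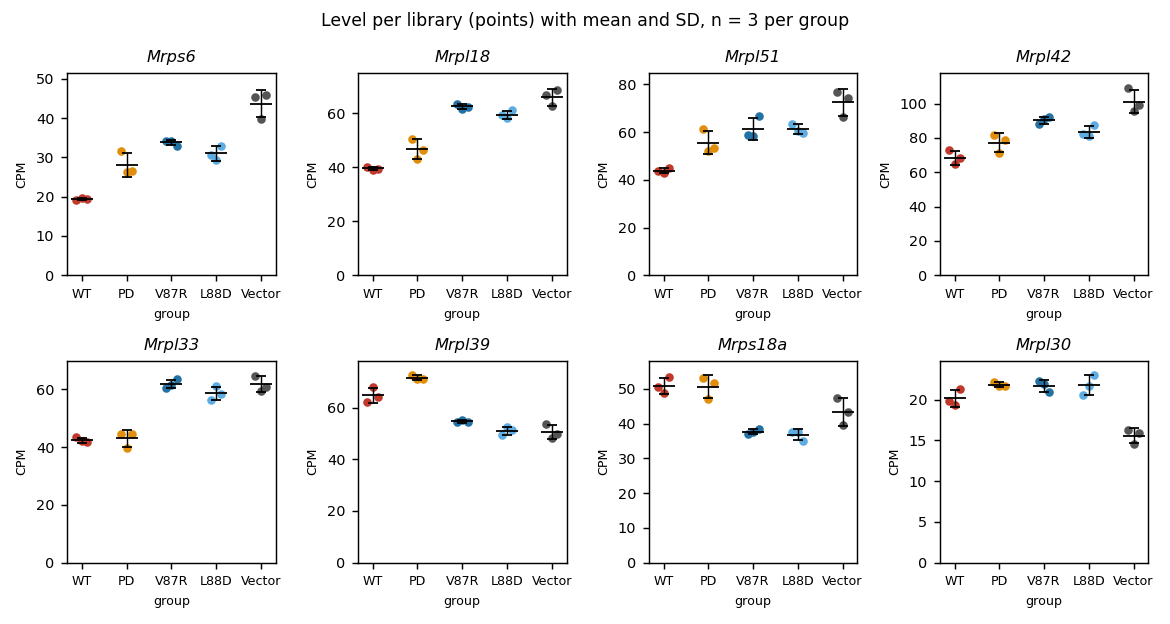
CPM per library (points) with mean and SD (bars, n = 3) for 8 members in the 5 groups. Mrps6, Mrpl18, Mrpl51, Mrpl42 and Mrpl33 have their lowest group mean in Malt1_WT, Mrpl39 and Mrps18a are higher in Malt1_WT and Malt1_PD, and Mrpl30 is higher in all constructs than in Vector.

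The comparisons of each mutant with Malt1_WT asked where the mutants differ from the wild-type protein. In all of them most members that were called stood higher in the mutant. In Malt1_PD 25 members were higher than in Malt1_WT (34.2%) and 0 lower, where 12.6% of all genes were higher and 10.7% lower. In Malt1_V87R 39 were higher (53.4%) and 3 lower, where 24.9% and 23.4% of all genes were. In Malt1_L88D 28 were higher (38.4%) and 3 lower, where 22.8% and 22.3% of all genes were. The median log2 differences of the members were 0.16, 0.19 and 0.12, against 0.01, 0.02 and 0.02 over all genes. Without overlap of libraries 15, 37 and 26 were higher, where 11.2%, 24.0% and 22.0% of all genes were, and 0, 3 and 3 were lower, where 10.2%, 22.8% and 21.7% of all genes were. In either direction 25, 42 and 31 of the 73 members were called, where 23.3%, 48.3% and 45.1% of all genes were. For Malt1_L88D the share of members was slightly below that of all genes, and for Malt1_PD and Malt1_V87R it was above.

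Mrps6 led each of these comparisons, with 0.54 ± 0.08 in Malt1_PD (adjusted p = 8.1e-06), 0.81 ± 0.08 in Malt1_V87R (adjusted p = 7.3e-10) and 0.68 ± 0.08 in Malt1_L88D (adjusted p = 3.4e-08). In Malt1_PD it was followed, among members without overlap, by Mrpl55, Mrpl51 and Mrpl17. Mrpl55 averaged 16 ± 1.38 CPM in Malt1_PD and 12.3 ± 2.11 in Malt1_WT (0.39 ± 0.11, adjusted p = 0.012). Mrpl51 differed by 0.34 ± 0.07 (adjusted p = 0.00038) and Mrpl17 by 0.32 ± 0.06 (adjusted p = 0.00021). The call of Mrpl55 was lost without Malt1_WT replicate 2 or Malt1_PD replicate 1 or 3 (adjusted p from 0.0586 to 0.137). Mrpl18 averaged 62.5 ± 0.858 CPM in Malt1_V87R, 59.5 ± 1.52 in Malt1_L88D and 39.6 ± 0.540 in Malt1_WT. Those differences from Malt1_WT were 0.66 ± 0.06 in Malt1_V87R (adjusted p = 6.9e-11) and 0.59 ± 0.06 in Malt1_L88D (adjusted p = 1.1e-09). Mrpl15 was higher by 0.54 ± 0.15 in Malt1_V87R (adjusted p = 0.0034) and 0.61 ± 0.15 in Malt1_L88D (adjusted p = 0.0013).

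The 3 members lower than in Malt1_WT were the same in Malt1_V87R and Malt1_L88D: Mrps18a, Mrpl39 and Mrps18b. Mrps18a differed from Malt1_WT by −0.43 ± 0.06 in Malt1_V87R and −0.47 ± 0.07 in Malt1_L88D on the log2 scale (adjusted p = 2e-06 and 8.4e-07). Mrpl39 differed by −0.24 ± 0.05 in Malt1_V87R (adjusted p = 0.00022) and −0.34 ± 0.05 in Malt1_L88D (adjusted p = 2.8e-06). Mrps18b differed by −0.19 ± 0.06 and −0.16 ± 0.06 (adjusted p = 0.0081 and 0.025), and the call in Malt1_L88D was lost without Malt1_WT replicate 1 or 2 or Malt1_L88D replicate 1 or 2 (adjusted p from 0.0641 to 0.0861). Both comparisons share the Malt1_WT libraries.

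The count of members higher in Malt1_PD than in Malt1_WT moved with the libraries and the scaling. It was 35 without Malt1_PD replicate 2, 7 without Malt1_PD replicate 1, 9 without Malt1_PD replicate 3 and 13 without Malt1_WT replicate 2 or 3. It was 11 in a fit of those 6 libraries alone, which called 1201 of all genes higher and 1382 lower. With upper-quartile scaling it was 16, and the split of all genes turned from 1834 higher and 1565 lower to 1365 higher and 1766 lower.

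Malt1_V87R and Malt1_L88D, set against each other, gave 0 members and 0 of all genes with an adjusted p under 0.05 by edgeR, and 0 by DESeq2. An edgeR fit of those 6 libraries alone called 14 genes higher and 11 lower, and one without a filter 1 and 4, with 0 members in either. At an unadjusted p under 0.05 there were 8 members and 852 genes (5.85%). The median difference of the members, Malt1_V87R minus Malt1_L88D, was 0.07 on the log2 scale. The 95% intervals of single members, from their SE and 10 residual degrees of freedom, reached from −0.374 to 0.488 at the widest bounds, and 67 of 73 included 0. The other 6, all above 0 before any adjustment, were Mrpl54, Mrpl43, Mrpl11, Mrpl58, Mrpl36 and Mrpl10. Mrps6 differed by 0.13 (interval −0.0325 to 0.287). Missing the threshold does not show that the 2 substitutions act alike.

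Large-subunit and small-subunit members had medians on the same side of 0 in each comparison with Vector and with Malt1_WT. Against Vector, 34 of 47 large-subunit (72.3%) and 17 of 26 small-subunit members (65.4%) fell in Malt1_WT, against 27.7% of all genes. In Malt1_PD 18 (38.3%) and 8 (30.8%) fell, against 22.0%. The numbers were 4 (8.51%) and 4 (15.4%) in Malt1_V87R, against 4.70%, and 12 (25.5%) and 7 (26.9%) in Malt1_L88D, against 8.43%. The medians were −0.28 for the large and −0.21 for the small subunit in Malt1_WT, −0.11 and −0.08 in Malt1_PD, −0.08 and −0.13 in Malt1_V87R, and −0.15 and −0.15 in Malt1_L88D. Higher than in Malt1_WT were 20 large-subunit (42.6%) and 5 small-subunit members (19.2%) in Malt1_PD, against 12.6% of all genes. In Malt1_V87R 30 (63.8%) and 9 (34.6%) were, against 24.9%, and in Malt1_L88D 20 (42.6%) and 8 (30.8%), against 22.8%. The medians against Malt1_WT were 0.17 for the large and 0.13 for the small subunit in Malt1_PD, 0.23 and 0.12 in Malt1_V87R, and 0.15 and 0.09 in Malt1_L88D. The difference between these shares was not tested.

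Summed over the 47 large-subunit members, the level was 1750, 1680 and 1686 CPM in Malt1_WT, 2013, 1774 and 1925 in Malt1_PD, 1966, 1967 and 2022 in Malt1_V87R, 1912, 1888 and 1860 in Malt1_L88D, and 2145, 1972 and 2081 in Vector. Over the 26 small-subunit members it was 911, 884 and 901 CPM in Malt1_WT, 1021, 922 and 980 in Malt1_PD, 965, 974 and 1001 in Malt1_V87R, 956, 956 and 936 in Malt1_L88D, and 1090, 1016 and 1047 in Vector. In both sums every Malt1_WT library was below every library of the other groups. Of the construct libraries, only Malt1_PD and, for the large subunit, Malt1_V87R reached into the range of Vector.

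The ratio of the large to the small sum averaged 1.898 ± 0.0246 in Malt1_WT, 1.953 ± 0.0256 in Malt1_PD, 2.025 ± 0.00926 in Malt1_V87R, 1.988 ± 0.0130 in Malt1_L88D and 1.966 ± 0.0233 in Vector (SD, n = 3 each). The Malt1_WT libraries were the lowest and the Malt1_V87R libraries the highest, and neither overlapped Vector. As a mean over members on the log2 scale, large minus small subunit, Malt1_WT differed from Vector by −0.04 and Malt1_V87R by 0.06. The difference in Malt1_WT rested on how members were assigned: with subunits taken from the place of each protein in the ribosome, which puts Mrps18a and Mrps30 in the large subunit and leaves out Mrps36, it was 0.00319. Mrps36 encodes a protein that is now known as part of the 2-oxoglutarate dehydrogenase complex.

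**Figure D4:**
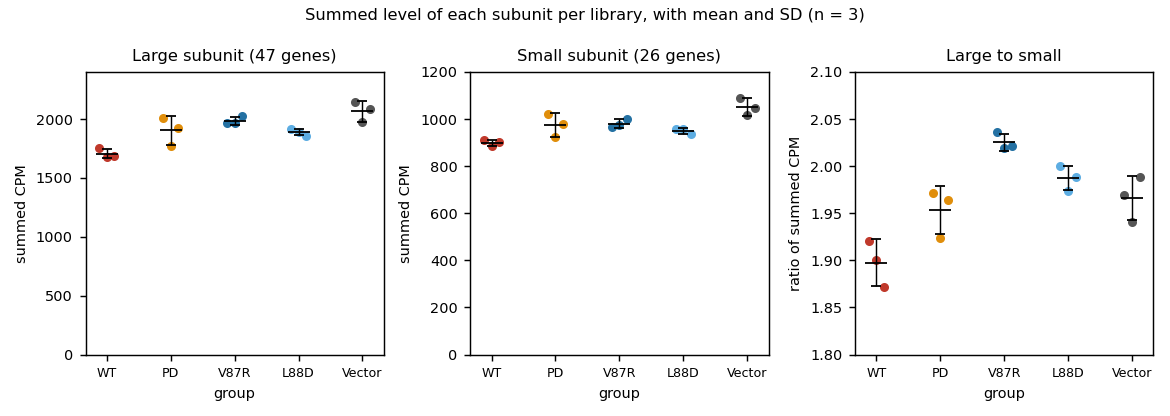
Summed CPM of the large-subunit and small-subunit members (left and middle) and the ratio of the sums (right, axis not from 0) per library, with mean and SD (bars, n = 3). The Malt1_WT libraries are lowest in all panels and the Malt1_V87R libraries have the highest ratio.

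Other genes of mitochondrial and cytosolic translation are given for comparison, as shares of the tested genes of each list. In Malt1_WT against Vector, where 27.7% of all genes fell and 27.2% rose, 39 of 44 (88.6%) large-subunit genes of the cytosolic ribosome fell. So did 26 of 32 (81.2%) small-subunit genes and 61 of 71 (85.9%) nuclear genes of oxidative phosphorylation, with 0 rises in each list. Rps7 averaged 1320 ± 39.8 CPM in Malt1_WT and 1650 ± 81.3 in Vector (adjusted p = 4.7e-07), and Atp5g3, a subunit of the ATP synthase, averaged 137 ± 3.59 in Malt1_WT and 192 ± 7.36 in Vector (adjusted p = 1.9e-09). Of 5 mitochondrial ribosome proteins with other names 4 fell, among them Dap3, at 122 ± 5.18 CPM in Malt1_WT and 135 ± 7.24 in Vector (adjusted p = 0.0074), and Ptcd3, at 211 ± 4.70 in Malt1_WT and 236 ± 5.78 in Vector (adjusted p = 0.00041).

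In Malt1_PD against Vector, 22.0% of all genes fell and 22.8% rose. There 27 of 71 oxidative phosphorylation genes fell (38%) and 1 rose. Of the cytosolic ribosome 4 of 44 large-subunit genes fell (9.09%) and 1 rose, and 2 of 32 small-subunit genes fell (6.25%). In Malt1_V87R, where 4.70% of all genes fell, 2 of 71 oxidative phosphorylation genes did (2.82%). Of cytosolic ribosomal genes 1 of 44 (2.27%) and 0 of 32 did. In Malt1_L88D 17 of 71 (23.9%), 3 of 44 (6.82%) and 9 of 32 (28.1%) fell, against 8.43% of all genes. The difference between lists was not tested.

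The genes that the mitochondrial ribosome depends on are set beside all genes, of which 27.7% fell and 27.2% rose in Malt1_WT against Vector. There 7 of 15 mitochondrial translation factors fell (46.7%) and 0 rose, among them Gfm1, the elongation factor, at 94.2 ± 1.23 CPM in Malt1_WT and 107 ± 1.38 in Vector (adjusted p = 0.00043). Of 20 mitochondrial aminoacyl-tRNA synthetase genes 9 fell (45%) and 1 rose. Of 29 assembly factors 8 fell (27.6%) and 7 rose (24.1%), among them Afg3l2, a subunit of the m-AAA protease, at 250 ± 2.55 CPM in Malt1_WT and 150 ± 4.01 in Vector (0.74 ± 0.04, adjusted p = 4.5e-16). Of the 13 mRNAs that the mitochondrial ribosome translates 4 fell (30.8%) and 2 rose (15.4%): mt-Co1 averaged 13500 ± 115 CPM in Malt1_WT and 10600 ± 313 in Vector (adjusted p = 1.5e-10), and mt-Nd6 averaged 708 ± 18 in Malt1_WT and 903 ± 62.2 in Vector (adjusted p = 6.5e-08).

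**Figure D5:**
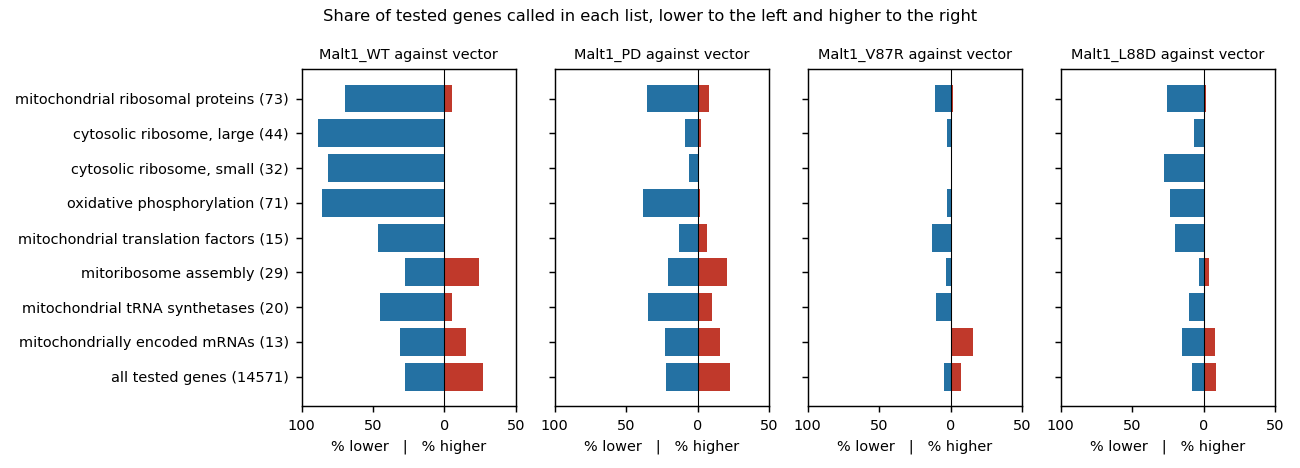
Share of tested genes in each list that fell (blue, to the left, %) or rose (red, to the right, %) against Vector, by construct, with the number tested in parentheses. In Malt1_WT 69.9% of mitochondrial ribosomal protein genes fell, between 88.6% of large-subunit genes of the cytosolic ribosome and 27.7% of all genes.

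Short members fell somewhat more often by count. In Malt1_WT against Vector 16 of 19 members with under 1500 bp of exon fell (84.2%), and 35 of 54 longer ones (64.8%), while over all tested genes those shares were 21.8% and 28.7%. The median log2 fold change was −0.36 for short and −0.21 for longer members, and −0.13 and 0.005 over all genes. The part of exon length in the result was not tested.

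Some members lie beside a divergent gene. For 18 of 73 (24.7%), a protein-coding gene on the opposite strand starts within 1000 bp upstream of the GENCODE M21 start. Of 12113 tested protein-coding genes 10.4% have one, and 55 members have none. Pairs that overlap at their starts, such as Mrpl46 and Mrps11, do not count by this rule. Mrpl30 lies 66 bp from Mitd1, Mrpl51 100 bp from Ncapd2, and Mrps12 172 bp from Sars2, the mitochondrial seryl-tRNA synthetase. The members lie on many chromosomes, with 10 on chromosome 11 and 7 on chromosome 17. Genes overlap the exons of some, most in Mrps34 (77.8%, the largest overlap with Mapk8ip3) and Mrps25 (69.8%, the largest overlap with Nr2c2). The strand setting of the counting is not given in the sources used here, so counts of overlapped genes are uncertain.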

How the data were processed

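The deposited table held raw counts per gene symbol for all 15 libraries, with 0 sample columns left unused. Per the labels' protocols, total RNA was made into directional libraries and read as 150 bp paired ends. Featured in the submitters' processing notes are featureCounts 1.6.3, GRCm38.p6, STAR 2.7.3a and Trim Galore 0.6.0. No annotation release, strand setting or multimapping rule is given in the sources used here.

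Genes passing filterByExpr were fitted in R 4.3.3 with edgeR 4.0.16 (TMM, robust quasi-likelihood fit of all 15 libraries, 1 mean per group), giving 8 two-sided comparisons with Benjamini-Hochberg adjustment over genes and a threshold of 0.05. The common biological coefficient of variation was 4.61%. SE values are log2 fold change over the root of F. Positions and exon lengths are from GENCODE M21, promoters from RefSeq GRCm38.p6. The procedure was tested on simulated data. For Malt1_WT against Vector, 56% of 50 genes changed 1.25-fold were recovered, 86% at 1.5-fold, 98% at 2-fold and 100% at 4-fold. At each fold 50 of 13210 genes were changed, while in the data 54.9% of all genes were called in that comparison. The adjustment is stricter where fewer genes change, so the recovered shares may not carry over to the data. The median change of the members in Malt1_WT against Vector was smaller than 1.25-fold, so small true changes can be missed.

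Members and gene lists were chosen with earlier results of these data known. Named members were the 6 largest rises and falls per comparison (4 against Malt1_WT) among called members without library overlap, those called in all comparisons with Vector, level extremes, members with known further roles and the Mrps18 family; each list gave up to 3 genes of smallest adjusted p. Alternatives were other scalings, DESeq2 1.42.0, no filter, a level minimum of 10 CPM, fits of 6 libraries, replicate as a block, each library left out, and subunits by place. Depth sets the precision of low members.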

Additional observations from a re-analysis of the deposited data

How the results depend on the processing

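A total of 288 values under other settings were compared with those reported, for members called higher or lower and for the subunit difference in each comparison: 267 stayed within the margin used here and 21 moved, of which 1, the subunit difference of Malt1_WT against Vector, changed sign. Under other whole settings, 2 members rose in Malt1_V87R against Vector without a filter or with the replicate block, 5 fell there with DESeq2, and 16 were higher in Malt1_PD than in Malt1_WT with upper-quartile scaling and 11 in a fit of those 6 libraries alone. With subunits by place, large minus small was 0.00319 in Malt1_WT (−0.0363 by name) and 0.047 in Malt1_PD against Vector, and 0.0466 in Malt1_V87R and 0.0173 in Malt1_L88D against Malt1_WT. Leaving out 1 library gave 17 to 29 falls in Malt1_PD, 2 to 7 in Malt1_V87R and 5 to 26 in Malt1_L88D against Vector, and against Malt1_WT 7 to 35 members higher in Malt1_PD and 2 to 5 lower in Malt1_L88D. For Malt1_WT against Vector the falls stayed between 43 and 50, and 40 of its 55 calls in either direction held in every such fit. In Malt1_PD against Vector 20 of 32 did. Against Malt1_WT, 6 of 25 calls held in Malt1_PD, 30 of 42 in Malt1_V87R and 16 of 31 in Malt1_L88D. The cause of these changes was not tested, beyond the fewer libraries in each such fit. The shares of all genes in those fits are not given here, so a change over all genes cannot be told from one in the members. Replicate numbers do not pair the libraries (correlations of same-numbered deviations from −0.0513 to 0.15). A fit with the replicate block called 57 members for Malt1_WT, 35 for Malt1_PD, 11 for Malt1_V87R and 25 for Malt1_L88D against Vector. It also called more of all genes: 1240 higher and 906 lower in Malt1_V87R, against 1021 and 685 in the main fit. The numbers were 1554 and 1478 in Malt1_L88D, against 1306 and 1228. They were 4102 and 4182 in Malt1_WT, against 3958 and 4039, and 3474 and 3382 in Malt1_PD, against 3318 and 3203. Between Malt1_V87R and Malt1_L88D no setting called a member, so those counts, all 0, are among the values that stayed. The level minimum of 10 CPM left out only Mrpl15, 1 of the 73 members. Counts under that setting could therefore move by at most 1. With 3 libraries a group, small changes near the threshold and members at low counts such as Mrpl15 are the least certain.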

Other observations

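Of 12 tested regulators of mitochondrial gene programmes, 3 rose and 3 fell in Malt1_WT against Vector (25% each, where 27.2% of all genes rose and 27.7% fell). In Malt1_PD 5 rose (41.7%) and 3 fell (25%), where 22.8% and 22.0% of all genes did. Atf4, the transcription factor of the integrated stress response, averaged 652 ± 23.4 CPM in Malt1_WT, 616 ± 33.3 in Malt1_PD, 418 ± 19.8 in Malt1_V87R, 398 ± 8.3 in Malt1_L88D and 375 ± 16.1 in Vector. Its log2 fold change against Vector was 0.80 ± 0.04 in Malt1_WT (edgeR adjusted p = 1.9e-15) and 0.72 ± 0.04 in Malt1_PD (adjusted p = 3e-14). Pprc1, a coactivator of the PGC-1 family, averaged 78.8 ± 2.04 CPM in Malt1_WT and 106 ± 1.81 in Vector (−0.43 ± 0.04, adjusted p = 1.5e-09). Yy1 averaged 123 ± 5.27 CPM in Malt1_WT and 158 ± 4.23 in Vector (−0.36 ± 0.04, adjusted p = 3.6e-08), and Esrra, an orphan nuclear receptor, averaged 28.5 ± 1.16 in Malt1_WT and 18.4 ± 0.307 in Vector (0.64 ± 0.07, adjusted p = 4.2e-09). Nrf1, Gabpa, Gabpb1 and Gabpb2 passed the test in none of the comparisons of Malt1_WT and Malt1_PD with Vector.

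Of 11 mitochondrial chaperones and proteases, 3 rose and 3 fell in Malt1_WT against Vector, and 5 rose and 0 fell in Malt1_PD; the shares of all genes are those above. Hspa9, the mitochondrial HSP70, averaged 1040 ± 13 CPM in Malt1_WT and 871 ± 24.8 in Vector (0.26 ± 0.03, adjusted p = 7.6e-08), and Lonp1, a matrix protease, averaged 362 ± 15.9 in Malt1_WT and 290 ± 11.4 in Vector (0.32 ± 0.04, adjusted p = 2.1e-07). Trap1, a chaperone of the HSP90 family, averaged 113 ± 5.15 CPM in Malt1_WT and 138 ± 3.2 in Vector (−0.29 ± 0.05, adjusted p = 2.8e-06). The difference between these lists and the members was not tested.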
